A study of Komagataella pastoris with 4 samples.

Results

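The genes described here are 5 transporter rows of the methylotrophic yeast Pichia pastoris (also known as Komagataella phaffii), taken by gene identifier from a count table of 5427 rows. They comprise the hexose transporter of moderate affinity, ACIB2EUKG767781, and 4 rows whose annotation names a high-affinity or low-affinity glucose transporter, ACIB2EUKG767786, ACIB2EUKG772004, ACIB2EUKG769167 and ACIB2EUKG770743. All 5 were among the 5425 rows tested. The study's annotation gives the name GTH1 to ACIB2EUKG767786 and PpHXT1 to ACIB2EUKG769167, and the other members are called by their identifiers. Annotation sources differ for PpHXT1, which is a high-affinity transporter in the protein description and a low-affinity one in its UniRef entry.

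Dmxr1 is a derivative of GS115 in which a zeocin resistance cassette disrupts MXR1, which encodes a zinc finger regulator of transcription, Mxr1p. GS115 carries the intact gene and no antibiotic resistance, and both strains are histidine auxotrophs. Each strain was grown for 14 h in minimal medium with ethanol in place of glucose, and 2 replicate cultures per strain were sequenced after depletion of ribosomal RNA. The comparison asks which transcripts differ on ethanol when Mxr1p is missing. The 4 libraries held between 24140235 and 29402357 counts. The MXR1 row, ACIB2EUKG772516, had 206 and 258 CPM (counts per 1000000 of the library size, scaled by TMM) in Dmxr1 and 287 and 405 CPM in GS115, and a count over a gene broken by a cassette does not check the labels. According to the study Dmxr1 grew more slowly than GS115 in this medium, so a difference that goes with growth and one that goes with the loss of MXR1 cannot be told apart.

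Yeast hexose transporters are membrane proteins of the major facilitator superfamily that let glucose and related sugars enter the cell. Low-affinity forms serve when sugar is plentiful, and high-affinity forms, which are repressed by abundant glucose in many yeasts, serve when it is scarce. GTH1 is known as such a high-affinity transporter of P. pastoris. In Saccharomyces cerevisiae, sensors of extracellular glucose, the Snf1 kinase and the repressors Rgt1 and Mig1 govern which transporter genes are expressed. The present cells had ethanol and no glucose as carbon source, so the values describe transporter transcripts in the absence of their substrate from the medium. Per the study's general culture methods, cells were first grown overnight in rich medium with dextrose and washed before transfer. Any effect of that earlier glucose on the values was not tested.

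GTH1 and ACIB2EUKG772004, both described as high-affinity glucose transporters, were 5.05-fold and 3.84-fold lower in Dmxr1, while the other 3 members were not called. ACIB2EUKG770743 and, in its protein description, PpHXT1 are also described as high-affinity. That label therefore does not separate the called members from the others. A gene was called at an adjusted p of at most 0.05 in edgeR's quasi-likelihood test together with a log2 fold change of at least 1 in size. Of the 5 members, 2 were called lower in Dmxr1, against 3.26% of all genes tested, and 0 were called higher, against 0.535%. DESeq2 gave the same numbers, 2 lower and 0 higher. At an unadjusted p under 0.05 in edgeR 2 members were higher, and the share of all genes at that cut was not computed. At the adjusted p alone 1 member was higher in edgeR, against 5.07% of all genes, and 2 were higher in DESeq2.

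GTH1 had 44.4 and 36.1 CPM in Dmxr1, against 205 and 202 CPM in GS115. The groups lay far apart, with both Dmxr1 libraries well under both GS115 libraries. The means were 40.3 ± 5.92 CPM in Dmxr1 and 203 ± 2.46 CPM in GS115 (SD, n = 2 each). The log2 fold change was -2.34 (SE 0.18, adjusted p = 1.35e-06, edgeR), or 5.05-fold lower with a 95% interval of 3.86 to 6.62. GTH1 stood seventh from the bottom when all 5425 genes were ordered by fold change. The replicates differed by 1.23-fold in Dmxr1 and by 1.02-fold in GS115, far less than the strains.

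The second called member, ACIB2EUKG772004, had 24.0 and 22.6 CPM in Dmxr1, against 91.7 and 87.4 CPM in GS115. Again no Dmxr1 library came near a GS115 library. Its mean fell to 23.3 ± 1.003 CPM in Dmxr1, against 89.5 ± 3.06 CPM in GS115 (SD, n = 2 each), and the log2 fold change was -1.94 (SE 0.17, adjusted p = 3.81e-06, edgeR). The fold was 3.84 (95% interval 2.98 to 4.95), and the gene was 14th from the bottom of the same order. The interval overlaps that of GTH1, and the difference between the 2 folds was not tested. Both calls held in all 13 other settings, the test against the fold threshold itself included, where the adjusted p was 8.19e-05 for GTH1 and 0.00144 for ACIB2EUKG772004. Bulk libraries cannot tell fewer cells with a transcript apart from less of it per cell.

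KEGG entries took no part in the choice of the members, but they were looked at with the fold changes already known. They annotate the same genes and are no independent support for the pair. K08137, described as a galactose:H+ symporter of the SP (sugar porter) family, was assigned to 2 rows of the whole table, and these were GTH1 and ACIB2EUKG772004. PpHXT1 carries K08139, the HXT family of sugar:H+ symporters. The only other row with that entry is ACIB2EUKG768400, annotated by UniRef as a low glucose sensor, with 104 and 99.6 CPM in Dmxr1 and 126 and 126 CPM in GS115 (log2 fold change -0.31, adjusted p = 0.212, edgeR). ACIB2EUKG767781 and ACIB2EUKG770743 have no KEGG entry. Of 11 rows that KEGG places in the SP family, 3 were called lower and 0 higher, against 3.26% and 0.535% of all genes. GTH1 and ACIB2EUKG772004 are themselves 2 of those 3, and the third was the inositol transporter ACIB2EUKG770220. In the other direction ACIB2EUKG769367, an arabinose:H+ symporter by its KEGG entry, had 22.2 and 16.6 CPM in Dmxr1 and 8.69 and 11.3 CPM in GS115. Its log2 fold change of 0.94 (adjusted p = 0.0100, edgeR) missed only the fold threshold, and it was singled out after its value was seen. ACIB2EUKG772150, an inositol transporter by description, carries the same KEGG entry and had -0.57 (adjusted p = 0.114, edgeR).

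PpHXT1 had by far the most reads of the members. It had 2770 and 2532 CPM in Dmxr1, against 1718 and 1759 CPM in GS115. Both Dmxr1 libraries exceeded both GS115 libraries, and the means were 2651 ± 168 CPM in Dmxr1 and 1739 ± 29.0 CPM in GS115 (SD, n = 2 each). The log2 fold change was 0.61 (SE 0.22), or 1.52-fold with a 95% interval of 1.11 to 2.10, and the adjusted p of 0.0703 in edgeR missed the threshold. DESeq2 gave an adjusted p of 0.00598 at the same fold change, which also fell short of the fold threshold. Over all other settings the log2 fold change of PpHXT1 ranged between 0.54 and 0.69.

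The moderate-affinity transporter ACIB2EUKG767781 had few reads, between 197 and 460 counts per library. Its level was 15.8 and 16.3 CPM in Dmxr1, against 9.21 and 10.9 CPM in GS115. The libraries of the strains did not overlap. The log2 fold change of 0.67 (SE 0.20, 95% interval 0.24 to 1.10, adjusted p = 0.0356, edgeR) had an adjusted p under 0.05 and stayed short of the fold threshold. With 1 library fewer, the log2 fold change was 0.69 without Dmxr1 replicate 1 (adjusted p = 0.140, edgeR), 0.65 without Dmxr1 replicate 2 (0.104), 0.56 without GS115 replicate 1 (0.196) and 0.80 without GS115 replicate 2 (0.0360). With library size alone it was 0.74 (adjusted p = 0.0683). The direction was the same in each of these fits, and the adjusted p fell on either side of the threshold.

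ACIB2EUKG770743 is a high-affinity glucose transporter by description, and its UniRef name adds that a low level of glucose induces it. This member differed least. It had 47.8 and 43.3 CPM in Dmxr1, against 37.8 and 39.7 CPM in GS115. The groups came close without overlapping. The log2 fold change was 0.23 (SE 0.17, adjusted p = 0.355, edgeR), with a 95% interval of 0.918-fold to 1.51-fold that includes no change. In all, the Dmxr1 libraries lay above the GS115 libraries for 3 of 5 members and below them for 2, where such separation was found for 31.1% and 31.3% of all genes tested.

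**Figure D1:**
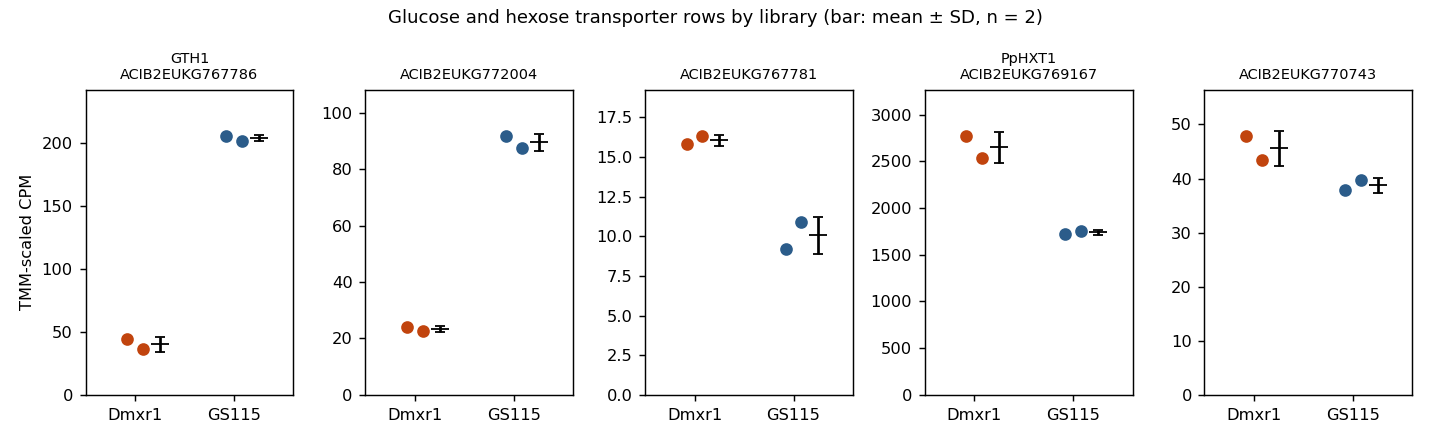
TMM-scaled CPM of the 5 transporter rows in each library, Dmxr1 in orange and GS115 in blue, with the mean and SD of the 2 libraries beside the points and a vertical axis of its own for each gene. GTH1 and ACIB2EUKG772004 sit at 36.1 to 44.4 and 22.6 to 24.0 CPM in Dmxr1, far under GS115, while the other rows sit somewhat higher in Dmxr1 than in GS115.

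Ratios of counts between members of the same library do not depend on how the libraries are scaled. PpHXT1 had 62.3 and 70.2 counts per count of GTH1 in Dmxr1, against 8.37 and 8.72 in GS115. The mean ratio was 7.75-fold higher in Dmxr1, a difference far beyond the spread of the replicates. It combines the fold changes of PpHXT1 and GTH1 given above, which went in opposite directions, and adds no separate result about either. An exact permutation test of 2 against 2 libraries cannot go below p = 0.33, and none was run. The table gives no gene lengths, so the ratios compare reads and not amounts of transcript, and the members are not ordered by level.

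For ACIB2EUKG767781 over GTH1 the ratios were 0.356 and 0.452 in Dmxr1 and 0.0449 and 0.0540 in GS115. Ratios of ACIB2EUKG772004 to GTH1, and among the 3 members not called, moved less. ACIB2EUKG772004 had 0.540 and 0.626 counts per count of GTH1 in Dmxr1 and 0.447 and 0.433 in GS115, a mean ratio 1.33-fold higher in Dmxr1. ACIB2EUKG767781 had 0.00571 and 0.00644 counts per count of PpHXT1 in Dmxr1 and 0.00536 and 0.00620 in GS115, and here the libraries of the strains overlapped. For ACIB2EUKG770743 over PpHXT1 the ratios were 0.0173 and 0.0171 in Dmxr1 and 0.0220 and 0.0225 in GS115.

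**Figure D2:**
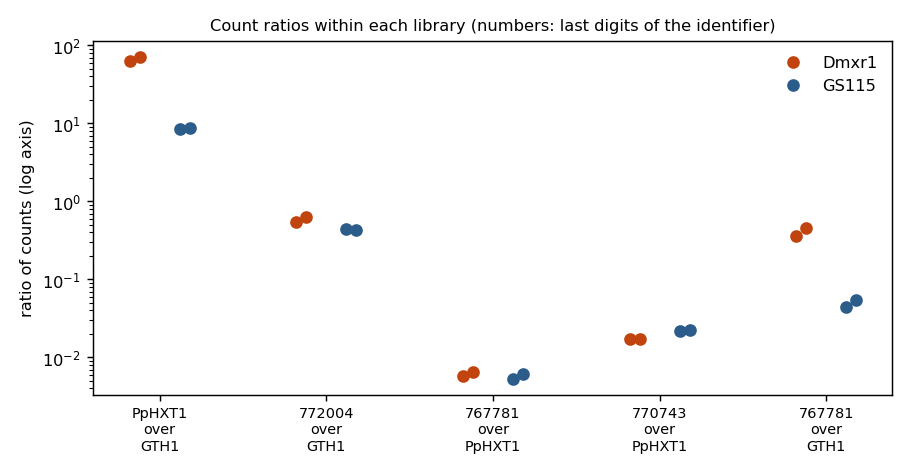
Ratios of the counts of 2 members within each library, on a log axis, Dmxr1 in orange to the left of GS115 in blue. PpHXT1 over GTH1 stands at 62.3 and 70.2 in Dmxr1 and at 8.37 and 8.72 in GS115, while ACIB2EUKG767781 over PpHXT1 overlaps between the strains.

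The division of reads among the 5 members differed between the strains. PpHXT1 held 95.4% and 95.5% of their summed counts in Dmxr1, against 83.3% and 83.8% in GS115. GTH1 held 1.53% and 1.36% in Dmxr1, against 9.95% and 9.61% in GS115, and ACIB2EUKG772004 held 0.827% and 0.853% in Dmxr1, against 4.45% and 4.16% in GS115. The summed level of the 5 rows was 2902 and 2650 CPM in Dmxr1, against 2062 and 2099 CPM in GS115. Since most of these reads belong to PpHXT1, the sum was higher in both Dmxr1 libraries.

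A further 13 rows were annotated as sugar or polyol transporters, after 8 of 21 matches that named another function had been left out. Of these 13, 1 was called lower and 0 higher in edgeR and in DESeq2, against 3.26% and 0.535% of all genes. At an unadjusted p under 0.05 in edgeR 7 were lower and 0 higher, and the share of all genes at that cut was not computed. Both Dmxr1 libraries lay below both GS115 libraries for 10 of the 13 and above them for 0, against 31.3% and 31.1% of all genes. The arabinose:H+ symporter ACIB2EUKG769367 was not among the matches, which were made on annotation text. With it, the count higher at an unadjusted p and the count above would not be 0. At the adjusted p alone 4 were lower, against 10.5% of all genes. The median log2 fold change was -0.55, against 0.0041 over all genes tested, and it was -0.31 with no match left out. The called row was ACIB2EUKG770220, a transporter of myo-inositol, a precursor of phospholipids, which had 63.2 and 66.3 CPM in Dmxr1 and 150 and 117 CPM in GS115 (log2 fold change -1.04, SE 0.18, adjusted p = 0.00169, edgeR). That call was lost without GS115 replicate 1, where the log2 fold change was -0.85, and under upper-quartile scaling (-0.97) or library size alone (-0.95). Without Dmxr1 replicate 2 the list had 3 called rows, and without GS115 replicate 2 it had 2.

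The most counted rows of that list that were not called also transport inositol. ACIB2EUKG772150 had 1115 and 1653 CPM in Dmxr1 and 2221 and 1883 CPM in GS115 (log2 fold change -0.57, adjusted p = 0.114, edgeR), and its log2 fold change ranged between -0.88 and -0.31 when 1 library was left out. ACIB2EUKG770221, which adjoins ACIB2EUKG770220 in the locus tags, had 973 and 824 CPM in Dmxr1 and 1726 and 1022 CPM in GS115 (log2 fold change -0.61, adjusted p = 0.104). For ACIB2EUKG770221 the log2 fold change was -0.19 without GS115 replicate 1 and -0.94 (adjusted p = 0.00467, edgeR) without GS115 replicate 2. Singled out after its value was seen, the glycerol proton symporter ACIB2EUKG770819 had 165 and 253 CPM in Dmxr1 and 498 and 334 CPM in GS115, and its log2 fold change of -0.99 (adjusted p = 0.0126) narrowly missed the fold threshold. ACIB2EUKG770699, the low-affinity glucose transporter 2 by its UniRef name and no member here, had 11.9 and 12.9 CPM in Dmxr1 and 11.9 and 11.7 CPM in GS115 (log2 fold change 0.075, adjusted p = 0.830), and it too was picked out after its value was seen.

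A second list held enzymes that take glucose into metabolism after its entry. It had 12 rows for hexokinase, phosphoglucomutase, phosphofructokinase, glucose-6-phosphate isomerase and glucose-6-phosphate dehydrogenase. Of these, 1 was called lower and 0 higher in edgeR and DESeq2, against 3.26% and 0.535% of all genes. At an unadjusted p under 0.05 in edgeR 1 was lower and 2 were higher, and the share of all genes at that cut was not computed. The median log2 fold change was 0.17. The called row, ACIB2EUKG770399, is a glucose-6-phosphate isomerase by description but uncharacterised by UniRef name, with 82.4 and 76.5 CPM in Dmxr1 and 198 and 123 CPM in GS115 (log2 fold change -1.01, adjusted p = 0.00508). It lost its call without GS115 replicate 1 (-0.63), without Dmxr1 replicate 2 (-0.96), under upper-quartile scaling (-0.93) and with library size alone (-0.90). Hexokinase phosphorylates glucose as it enters. The hexokinase rows ACIB2EUKG769156 and ACIB2EUKG772371 did not pass the test, at a log2 fold change of 0.13 (adjusted p = 0.683) for the first and 0.043 (adjusted p = 0.906) for the second.

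Among 15 rows for glucose signalling, which include the Snf1 kinase complex, Rgt1, Mig1, Grr1 and glucose sensors, 1 was called lower and 0 higher, also with DESeq2 (0 higher at an unadjusted p under 0.05), against 3.26% and 0.535% of all genes. At the adjusted p alone 4 were lower, against 10.5%. The median log2 fold change was -0.23. ACIB2EUKG770675 carries the KEGG name GPR1, a G protein-coupled receptor that senses glucose in S. cerevisiae. It had 53.0 and 63.7 CPM in Dmxr1 and 139 and 106 CPM in GS115 (log2 fold change -1.07, SE 0.19, adjusted p = 0.00189, edgeR). Its call was lost without Dmxr1 replicate 1 (-0.94), without GS115 replicate 1 (-0.87), under upper-quartile scaling (-0.998) and with library size alone (-0.98). Without GS115 replicate 2, 2 rows of the list were called lower.

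The kinase SAK1 (ACIB2EUKG770053), which activates Snf1, had 213 and 211 CPM in Dmxr1 and 463 and 364 CPM in GS115. Its log2 fold change of -0.96 (adjusted p = 0.00479, edgeR) missed only the fold threshold, and it was called without GS115 replicate 2 (-1.13). The SNF1 row itself, ACIB2EUKG770186, had 236 and 221 CPM in Dmxr1 and 220 and 247 CPM in GS115 (log2 fold change -0.034, adjusted p = 0.919). The adjoining row ACIB2EUKG770187, described as an AMP-activated kinase of a complex with Snf4p, had 151 and 142 CPM in Dmxr1 and 258 and 243 CPM in GS115. Its log2 fold change of -0.78 (adjusted p = 0.00965, edgeR) passed the adjusted p alone. The zinc finger row ACIB2EUKG772695, which KEGG assigns to CreA/MIG, the repressor of glucose-repressed genes, stood at -0.69 (adjusted p = 0.0239). The Rgt1 row ACIB2EUKG768017, a regulator of hexose transporter genes in S. cerevisiae, had -0.23 (adjusted p = 0.375). The last 3 rows were picked out after their values were seen.

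**Figure D3:**
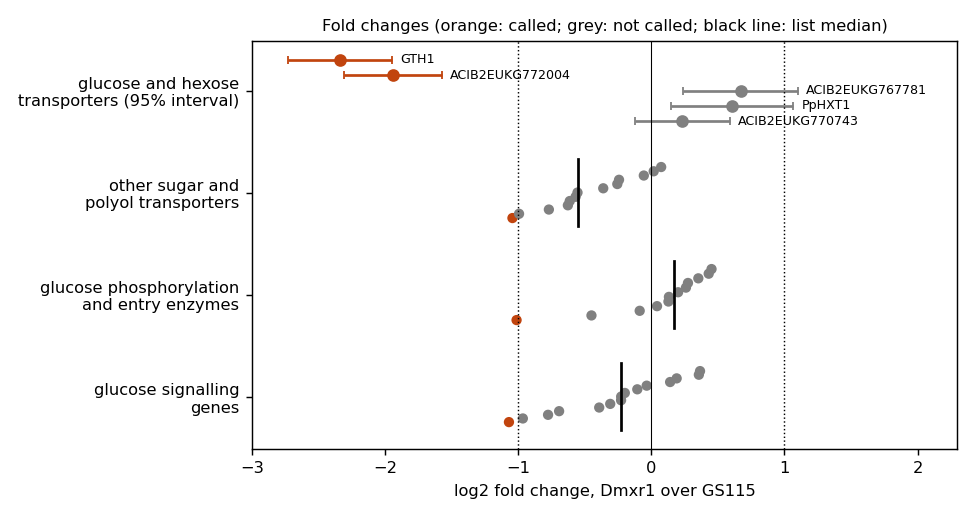
Log2 fold change of Dmxr1 over GS115 for the 5 transporters, with 95% intervals, and for each row of the 3 lists, with called rows in orange, others in grey, list medians as black lines and the fold threshold dotted. GTH1 at -2.34 and ACIB2EUKG772004 at -1.94 lie beyond every row of the lists, the lowest of which is at -1.07.

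Most members lie near the ends of chromosomes in the order of locus tags. ACIB2EUKG767781 was row 2 and GTH1 row 7 of 1657 from the start of chromosome 1, ACIB2EUKG770743 was row 4 from the end of chromosome 2, and ACIB2EUKG772004 was row 19 from the end of chromosome 3. PpHXT1 was row 221 from the end of chromosome 1. Among the 158 tested rows within 20 rows of a chromosome end, 2.53% were called lower and 2.53% higher, against 3.26% and 0.535% of all genes. The window holds 4 of the members, and GTH1 and ACIB2EUKG772004 are 2 of its 4 lower calls. Of its 4 higher calls, 3 lie within 5 rows of GTH1. They are ACIB2EUKG767788, ACIB2EUKG767790 and the allantoate permease ACIB2EUKG767791, at log2 fold changes of 1.37, 1.84 and 2.06. This window was chosen after the members' places were seen.

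Both rows that adjoin GTH1 were lower at the adjusted p alone, as were 10.5% of all genes, and no row beside it was called lower. ACIB2EUKG767785, which precedes it, stood at a log2 fold change of -0.84 (adjusted p = 0.00599, edgeR), short of the fold threshold, and ACIB2EUKG767784 before that at 0.25 (adjusted p = 0.347). On the other side, the isochorismatase family hydrolase ACIB2EUKG767787 had -0.57 (adjusted p = 0.0474, edgeR). Its adjusted p in edgeR was above the threshold under upper-quartile scaling (0.0589) and with library size alone (0.101). Leaving out 1 library gave it log2 fold changes of -0.578 to -0.566. Next outward, ACIB2EUKG767788, a protein with an FAD/NAD(P)-binding domain, was called higher at 1.37 (adjusted p = 0.00152, edgeR). ACIB2EUKG767788 had 333 and 204 CPM in Dmxr1 and 92.5 and 116 CPM in GS115, and without Dmxr1 replicate 1 its log2 fold change was 0.97, short of the fold threshold. Within 4 rows on each side of GTH1, 0 of 8 rows were called lower and 2 higher, against 3.26% and 0.535% of all genes. At that share, 0 lower calls among so few rows do not show that the lower level is confined to GTH1.

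Of the 8 rows beside ACIB2EUKG772004, 0 were called in either direction by edgeR, where 3.26% of all genes were called lower and 0.535% higher. The log2 fold change was 0.49 for the urea and polyamine transporter ACIB2EUKG772003 (adjusted p = 0.0612, edgeR) and 0.34 for the allantoin permease ACIB2EUKG772005 (adjusted p = 0.176). The next rows outward, ACIB2EUKG772002 and ACIB2EUKG772006, had 0.19 (adjusted p = 0.559) and 0.11 (adjusted p = 0.699). All 8 neighbours had log2 fold changes between 0.036 and 0.68, against -1.94 for the member between them. With 10 rows on each side 1 of 20 was called lower, against 3.26% of all genes. That row was ACIB2EUKG771998, at -1.05 (adjusted p = 0.00152, edgeR).

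No row within 4 rows of the remaining 3 members was called, where 3.26% of all genes were called lower and 0.535% higher. Beside PpHXT1, PIL1 (ACIB2EUKG769166), which organises plasma membrane domains in S. cerevisiae, had 1032 and 1253 CPM in Dmxr1 and 1146 and 1161 CPM in GS115 (log2 fold change -0.014, adjusted p = 0.968, edgeR). ACIB2EUKG769165, ACIB2EUKG769168 and ACIB2EUKG769169 had log2 fold changes of -0.96, -0.089 and -0.16. At the adjusted p alone ACIB2EUKG769165 was lower (0.00829, edgeR), and so was ACIB2EUKG769163, 4 rows before PpHXT1, at -0.72 (0.0194). No row of that window was higher at that cut, where 10.5% of all genes were lower and 5.07% higher. Without Dmxr1 replicate 2 and without GS115 replicate 1, ACIB2EUKG769165 was called lower, at -1.03 and -1.17. Around ACIB2EUKG767781, the rows ACIB2EUKG767780, ACIB2EUKG767782 and ACIB2EUKG767783 had -0.94, 0.44 and -0.10. ACIB2EUKG767780 rests on 7 to 28 counts per library, and leaving out 1 library gave -1.41 to -0.11 for it and 0.17 to 0.79 for ACIB2EUKG767782. Around ACIB2EUKG770743, ACIB2EUKG770742, the non-coding RNA row beside it, ACIB2EUKG770744 and ACIB2EUKG770745 had 0.37, 0.19, -0.23 and -0.56, none with an adjusted p under the threshold. With 10 rows on each side 1 of 12 tested rows near ACIB2EUKG770743 was called lower, against 3.26% of all genes. That row was ACIB2EUKG770734, described as a heme-dependent repressor of hypoxic genes, at -1.15 (adjusted p = 0.00895, edgeR).

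**Figure D4:**
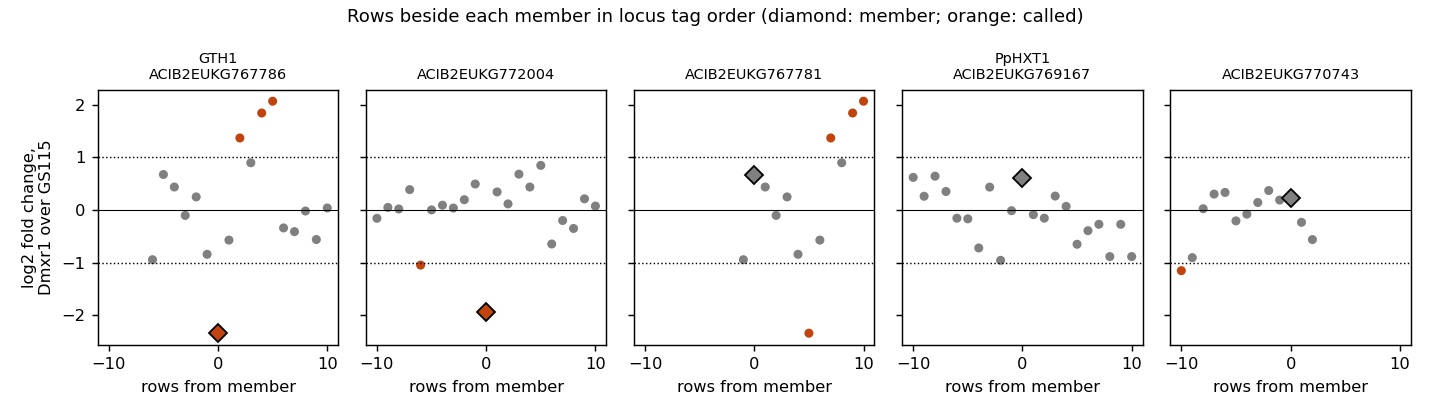
Log2 fold change of Dmxr1 over GS115 for up to 10 rows on each side of every member in locus tag order, with the member as a diamond at 0, called rows in orange and the fold threshold dotted. ACIB2EUKG772004 at -1.94 lies below all of its neighbours, the lowest of which is at -1.05. GTH1 at -2.34 lies near rows called higher at 1.37, 1.84 and 2.06.

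The rows most like each member were found by the Euclidean distance between log2 CPM values, centred on each row's mean, over the 4 libraries and 5364 other rows. Nearest to GTH1 were the fatty acyl-CoA synthetase ACIB2EUKG772675 (distance 0.129), the glutathione transferase ACIB2EUKG769933 (0.246) and the acyl-CoA oxidase ACIB2EUKG769134 (0.256). ACIB2EUKG772675 had 66.1 and 59.9 CPM in Dmxr1 and 306 and 308 CPM in GS115. Nearest to ACIB2EUKG772004 were ACIB2EUKG772772 (0.0747), ACIB2EUKG767948 (0.270), annotated as a cAMP-independent regulatory protein, and the membrane protein ACIB2EUKG772692 (0.327). With so few points, the same libraries and the same strain contrast lie behind every such distance.

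The nearest rows of the members that were not called had log2 fold changes between 0.22 and 0.64. PpHXT1 was closest to ACIB2EUKG770141 (distance 0.0246), annotated with a tryptophan synthase beta-like fold, to the ATP synthase subunit h row ACIB2EUKG770261 (0.0270) and to ACIB2EUKG770431 (0.0338). ACIB2EUKG767781 was closest to ACIB2EUKG770414 (0.0851), to the complex I subunit ACIB2EUKG771578 (0.0867) and to ACIB2EUKG768828 (0.0897). ACIB2EUKG770743 was closest to ACIB2EUKG769033 (0.0192), the COQ6 monooxygenase ACIB2EUKG769720 (0.0251) and the proteasome subunit ACIB2EUKG768679 (0.0277).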

How the data were processed

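The authors deposited unnormalized counts of reads for each gene. Per the submitters' processing notes, reads passed bcl2fastq 2.19.0.316, fastp 0.19.6, Bowtie2 and featureCounts 1.6.4, and the study's methods name a K. phaffii genome. How strand and multiply aligned reads were handled is not given in the sources used here, and counts of overlapping genes or near-identical transporters may be mixed. Library totals ranged between 24140235 and 29402357 counts.

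A minimum of 5 counts in 2 or more libraries left 5425 of 5427 rows, which were tested with edgeR 4.0.16 in R 4.3.3 (quasi-likelihood test, TMM, Benjamini-Hochberg over all rows tested), a procedure tested on simulated data. The standard error is the size of the log2 fold change over the square root of F. CPM are counts per 1000000 of TMM-scaled library size. Alternatives were DESeq2 1.42.0, other scalings and filters, a test against the fold threshold, replicate blocks and leaving out each library. Replicates differed by more than sampling noise (chi-square per degree of freedom 93.2 in Dmxr1 and 173 in GS115). The p-values rest on the spread between 2 cultures per strain, which edgeR moderates with the spread of all rows tested. They do not measure the spread of a single gene's cultures alone.

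The members and lists were chosen with earlier results of these data known. Named rows are the members, called rows of the 3 lists and the 2 others with the most CPM in each, the 2 rows on each side of a member, the 3 rows nearest in pattern, and MXR1. Further rows are named for their KEGG entry, from the wider window or, where said, after their values were seen. The lists were matched by annotation text. Gene names of GTH1 and PpHXT1 come from the study's supplementary annotation. The lowest member count was 197, and counting error alone gives ACIB2EUKG767781 a coefficient of variation of 4.75% in Dmxr1 and 6.10% in GS115.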

Additional observations from a re-analysis of the deposited data

How the results depend on the processing

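GTH1 and ACIB2EUKG772004 were called lower in all 13 other settings, with log2 fold changes of -2.50 to -2.19 and -1.99 to -1.86, and the other 3 members were called in 0 of 13. The adjusted p of PpHXT1 was under 0.05 in DESeq2 (0.00598), with upper-quartile scaling (0.0323), with library size alone (0.0285) and in the crossed block (0.0417). Over all genes, the test against the fold threshold called 16 lower and 5 higher, against 177 and 29. Leaving out 1 library gave 94 to 290 lower and 23 to 56 higher. Library size alone called 118 lower and 39 higher, so the lower share was 75.2% in place of 85.9%, and it moved the median of all genes by 0.075.

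The lists each had 1 call, which became 0 with upper-quartile scaling, library size alone and the test against the fold threshold. Leaving out 1 library gave 0 to 3 calls among sugar and polyol transporters, 0 to 1 among entry enzymes and 0 to 2 among signalling genes. The differences between replicates were only weakly related across the strains (correlation -0.144), so the replicate numbers do not show a pairing. With the replicate block 151 genes were lower and 28 higher and 0 entry enzymes were called, since ACIB2EUKG770399 stood at -0.97, and with the crossed block 169, 29 and 0. Neither block ended a call of a member. With 10 rows on each side in place of 4, 1 of 20 rows was called lower around ACIB2EUKG772004 and 1 of 12 tested rows around ACIB2EUKG770743. Around ACIB2EUKG767781 1 of 11 was called lower, which is GTH1. The same 3 rows were called higher around GTH1, among 16 rows, and around ACIB2EUKG767781, among 11. Over all genes 3.26% were called lower and 0.535% higher.

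Of 555 values from 43 of the other named rows, 518 kept direction and side of the threshold. A call was lost in 18 and gained in 3. A further 16 changed sign, all in rows with a log2 fold change between -0.10 and 0.19. ACIB2EUKG769166 had 0.049 with upper-quartile scaling and 0.061 with library size alone, ACIB2EUKG770186 had 0.026 and 0.038, and ACIB2EUKG769168 had 0.0062 with library size alone. Leaving out 1 library gave -0.56 to 0.24 for ACIB2EUKG767783, -0.16 to 0.12 for ACIB2EUKG769166, -0.25 to 0.083 for ACIB2EUKG769168, -0.12 to 0.052 for ACIB2EUKG770186, -0.047 to 0.40 for ACIB2EUKG772002, -0.062 to 0.27 for ACIB2EUKG772006, -0.054 to 0.15 for ACIB2EUKG772371 and -0.011 to 0.37 for the non-coding RNA row beside ACIB2EUKG770743. The cause of these changes was not tested.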
